A study of Homo sapiens with 12 samples.

Results

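The genes described here encode the nuclear-encoded parts of the mitochondrial respiratory chain and ATP synthase. They were chosen by symbol alone, as every gene whose platform annotation names it as a complex I subunit (NDUFA, NDUFB, NDUFC, NDUFS or NDUFV series) or complex I assembly factor (NDUFAF series), a succinate dehydrogenase subunit (SDH), a complex III subunit (UQCR series and CYC1), a cytochrome c oxidase subunit (COX4 to COX8 series) or an ATP synthase subunit (ATP5 series). The platform listed 93 such genes with 129 probes, and 85 of them, with 115 probes, were detected (detection p under 0.05) on at least 2 of 12 arrays. These 85 are among 12227 genes tested in the series. They comprise 34 complex I subunits, 8 complex I assembly factors, 3 subunits of complex II, 9 of complex III, 11 of complex IV, 18 genes of complex V and 2 transcribed pseudogenes (ATP5F1EP2 and UQCRBP1).

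The respiratory chain sits in the inner mitochondrial membrane and passes electrons from NADH, through complex I, and from succinate, through complex II, to ubiquinone, then through complex III and cytochrome c to complex IV, which reduces oxygen. Complexes I, III and IV pump protons, and ATP synthase (complex V) uses the return flow of protons to make ATP. Most subunits are encoded in the nucleus and imported, and their genes are expressed in nearly every cell type. Normal prostate epithelium is known for low citrate oxidation, which is regained in prostate cancer cells.

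The series asked how SPOP constructs found in prostate cancer change gene expression. SPOP binds the substrates of a ubiquitin ligase built on CUL3. All 12 samples were LNCaP-Abl, an established prostate cancer line derived from LNCaP by culture without androgen, grown in RPMI1640 with charcoal-stripped serum, transfected, and given doxycycline to induce the construct. The groups were control vector (3 arrays), WT SPOP, called wild-type SPOP here (3 arrays), and the mutants SPOP F102C, SPOP F133V and SPOP F133L (2 arrays each), whose changes lie in the substrate-binding domain. The labels do not say whether a group came from 1 clone or from a pool of transfected cells.

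The arrays had 17485 to 19677 detected probes of 47323 and a median intensity of 109 to 130.4. The SPOP probe detected on all arrays gave a log2 signal of 10.15 to 10.23 with control vector, 10.01 to 10.21 with wild-type SPOP and 9.90 to 10.27 with the mutants. Wild-type SPOP against control vector differed by -0.048 ± 0.098 (SE; adjusted p = 0.8406), and where this probe lies relative to the construct is not given, so it does not check the labels. Of the luminal prostate markers, 9 had a named probe and all 9 were detected on at least 2 arrays, with EPCAM, FOLH1, FOXA1, HOXB13, KLK2, KRT18, KRT8 and TMPRSS2 detected on all 12. The basal markers KRT5 and KRT14 were detected on 0 arrays. None of the 5 fibroblast markers and 1 of 4 immune markers (CD68) passed the same filter.

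Levels are log2 signals after background correction and quantile normalization (limma's neqc). A difference is a log2 difference between group means from a limma fit across all 12227 genes, with its standard error (SE), and a gene is said to have risen or fallen at a Benjamini-Hochberg adjusted p under 0.05 over all of them. The series calls its arrays biological replicates, p-values reflect only the spread between them, and their small number limits the precision. In bulk RNA, fewer cells of a type and less RNA per cell cannot be told apart.

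The respiratory chain genes varied little between the 12 arrays. Of the 85 genes, 84 were detected on every array. NDUFC2, an accessory subunit of the membrane arm of complex I, was detected on 7 arrays and its log2 level ran from 4.62 to 5.62. The range over the 12 arrays had a median of 0.424 log2 over the 85 genes, against 0.655 over all genes tested. NDUFC2 had the widest range, at 1.004, and was the only one of the 85 above 1 log2 unit, while 13.2% of all genes tested exceeded it. NDUFA5 (0.88), UQCR11 (0.867), NDUFV3 (0.818) and NDUFB1 (0.803) followed. The median SD within groups was 0.096 for these genes and 0.154 for all. Most of the 85 have strong signals, and among the 946 genes with a mean level over 11 the median range was 0.398 and the median SD 0.092.

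Mutants against wild-type SPOP gave 4 genes that rose and 0 that fell, which is 4.71% of the 85, while 11.8% of all genes tested passed the threshold. They are UQCR11, a small accessory subunit of complex III, and NDUFB4, NDUFB1 and NDUFA6, accessory subunits of complex I. In wild-type SPOP against control vector 2 genes rose and 0 fell (2.35% of the 85, against 6.15% of all genes). These were NDUFA13 and NDUFA11, also accessory subunits of complex I. In the mutants against control vector 2 rose (NDUFC1 and ATP5F1E) and 3 fell (NDUFAF7, NDUFS1 and NDUFAF6), together 5.88% of the 85, against 12.2% of all genes. No gene of complex II or complex IV passed the threshold in any of these comparisons. At an unadjusted p under 0.05 there were 18, 15 and 18 genes (21.2%, 17.6% and 21.2%), against 27.2%, 21.1% and 26.8% of all genes.

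The split of these calls depended on how the arrays were corrected and scaled. Both scalings by medians were applied to log2 intensities without background correction. In the mutants against wild-type SPOP 0 rose and 43 fell with array medians equalised, 10 rose and 8 fell with the medians of detected probes equalised, 5 rose and 3 fell after normexp correction with quantile normalization, and 5 rose and 10 fell in the authors' deposited processed values. In wild-type SPOP against control vector the corresponding counts were 0 and 1, 1 and 3, 4 and 0, and 9 and 2. For the mutants against control vector they were 0 and 65, 13 and 12, 5 and 3, and 13 and 4. In the same order of scalings, 39.6%, 43.9%, 15.5% and 16.4% of all genes passed in the mutants against wild-type SPOP, beside 50.6%, 21.2%, 9.41% and 17.6% of the 85. In wild-type SPOP against control vector 5.68%, 10.9%, 8.82% and 10.5% of all genes passed, and in the mutants against control vector 55.4%, 55.7%, 15.5% and 16.2%.

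**Figure D1:**
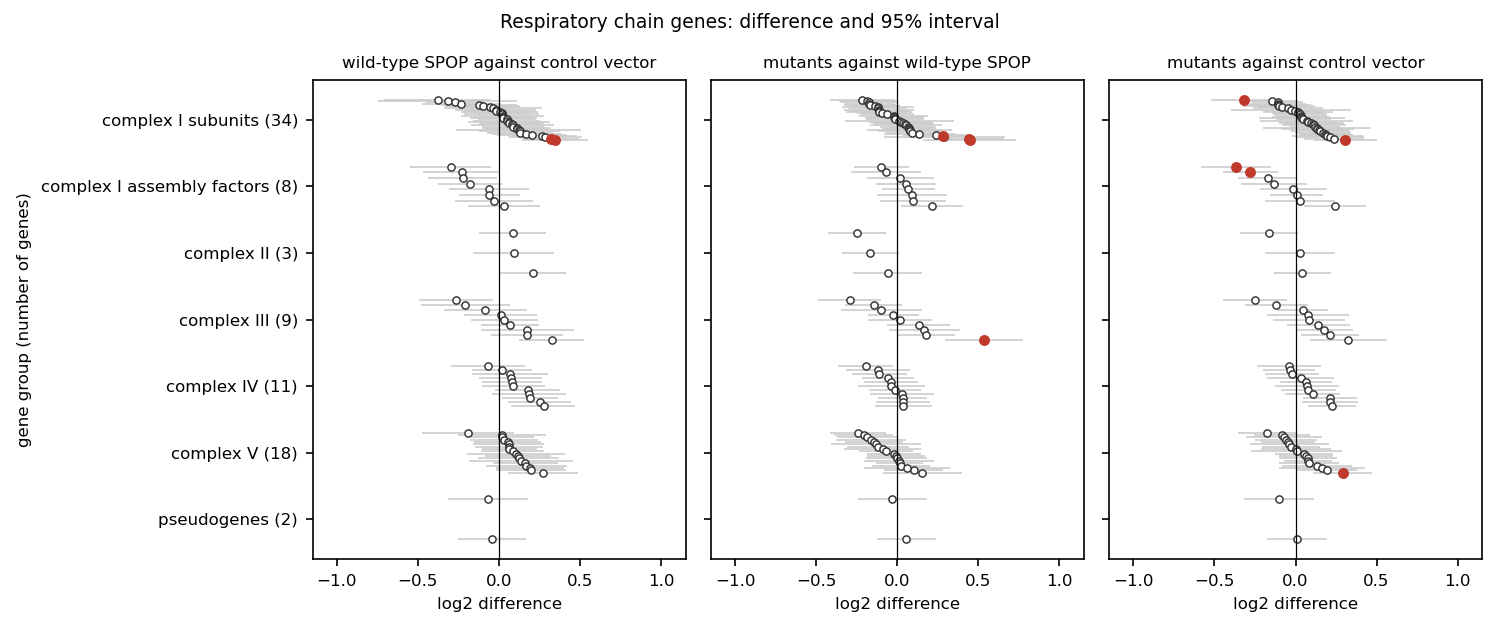
Log2 difference of each of the 85 genes (points) with its 95% interval (lines) in the 3 main comparisons, by complex, with filled coloured points for the genes past an adjusted p of 0.05. From the left panel to the right, 78, 81 and 82 of the 85 intervals lie within 0.5 log2 of zero.

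The promoters of the genes that rose are given here, and those of the genes that fell are not. Promoters of respiratory genes are known for sites of NRF1 (nuclear respiratory factor), ETS-family factors such as GABP, and YY1. Each printed promoter runs from 250 bases before to 50 bases after the annotated start, 5′ to 3′ on the gene's strand, from RefSeq (GRCh38.p14). Capitals mark matches, on either strand, to GCGCA and GCGC parted by any 1 base (NRF1), CCGGAAG (ETS) or AAGATGG (YY1), none of which overlap another in these promoters. The first 4 belong to the genes that rose in the mutants against wild-type SPOP, the next 2 to those that rose in wild-type SPOP against control vector, and the last 2 to those that rose in the mutants against control vector.
UQCR11: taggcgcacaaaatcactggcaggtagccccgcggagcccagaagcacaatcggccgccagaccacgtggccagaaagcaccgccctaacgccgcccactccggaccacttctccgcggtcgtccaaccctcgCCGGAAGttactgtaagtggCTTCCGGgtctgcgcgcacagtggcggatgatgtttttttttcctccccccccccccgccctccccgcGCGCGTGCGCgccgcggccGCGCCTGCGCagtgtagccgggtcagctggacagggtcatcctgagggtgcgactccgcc
NDUFB4: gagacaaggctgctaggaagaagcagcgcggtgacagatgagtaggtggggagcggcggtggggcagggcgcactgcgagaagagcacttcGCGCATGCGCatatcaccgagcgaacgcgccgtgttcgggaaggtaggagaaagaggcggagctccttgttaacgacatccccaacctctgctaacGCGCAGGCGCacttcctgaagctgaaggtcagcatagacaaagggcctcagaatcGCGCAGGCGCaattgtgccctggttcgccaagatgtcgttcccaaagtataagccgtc
NDUFA6: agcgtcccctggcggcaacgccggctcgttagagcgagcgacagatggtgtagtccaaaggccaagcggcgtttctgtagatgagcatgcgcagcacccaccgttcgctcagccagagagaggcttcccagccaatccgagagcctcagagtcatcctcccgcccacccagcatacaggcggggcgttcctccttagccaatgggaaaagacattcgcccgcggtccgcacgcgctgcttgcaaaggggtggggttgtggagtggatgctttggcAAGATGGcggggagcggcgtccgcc
NDUFB1: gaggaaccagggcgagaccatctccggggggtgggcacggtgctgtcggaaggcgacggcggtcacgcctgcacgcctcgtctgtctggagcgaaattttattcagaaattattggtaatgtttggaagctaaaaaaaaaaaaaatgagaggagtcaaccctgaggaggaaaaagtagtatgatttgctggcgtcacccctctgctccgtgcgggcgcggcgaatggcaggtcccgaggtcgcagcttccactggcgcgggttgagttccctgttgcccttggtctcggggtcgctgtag
NDUFA11: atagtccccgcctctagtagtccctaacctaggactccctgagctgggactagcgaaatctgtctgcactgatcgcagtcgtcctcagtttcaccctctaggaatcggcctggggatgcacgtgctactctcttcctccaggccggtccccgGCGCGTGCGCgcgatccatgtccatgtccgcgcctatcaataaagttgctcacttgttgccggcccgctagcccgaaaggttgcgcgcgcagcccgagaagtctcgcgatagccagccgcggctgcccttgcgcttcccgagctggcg
NDUFA13: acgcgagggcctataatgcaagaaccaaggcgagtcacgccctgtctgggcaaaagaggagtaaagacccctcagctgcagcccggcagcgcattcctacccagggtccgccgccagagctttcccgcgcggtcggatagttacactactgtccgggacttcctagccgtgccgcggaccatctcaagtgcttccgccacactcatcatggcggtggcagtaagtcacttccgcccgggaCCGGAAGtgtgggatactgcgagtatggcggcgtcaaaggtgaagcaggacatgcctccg
NDUFC1: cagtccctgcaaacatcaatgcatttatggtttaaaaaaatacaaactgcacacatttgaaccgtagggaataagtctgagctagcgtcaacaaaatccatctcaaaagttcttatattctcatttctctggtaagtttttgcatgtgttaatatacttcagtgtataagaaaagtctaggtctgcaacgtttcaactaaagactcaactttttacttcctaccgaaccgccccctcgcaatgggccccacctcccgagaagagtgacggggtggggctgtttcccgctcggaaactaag
ATP5F1E: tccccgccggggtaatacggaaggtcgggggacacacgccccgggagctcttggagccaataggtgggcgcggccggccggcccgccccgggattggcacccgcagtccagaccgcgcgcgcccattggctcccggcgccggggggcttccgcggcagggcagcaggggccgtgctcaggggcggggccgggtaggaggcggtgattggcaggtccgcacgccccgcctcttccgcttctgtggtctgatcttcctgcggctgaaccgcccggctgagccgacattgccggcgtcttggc

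UQCR11 (chr19:1605413-1605712, minus strand) held 2 NRF1 and 2 ETS matches, and NDUFB4 (chr3:120596086-120596385, plus strand) held 3 NRF1 matches. NDUFA6 (chr22:42090723-42091022, minus strand) held 1 YY1 match just after the start, and NDUFB1 (chr14:92121657-92121956, minus strand) held none. NDUFA11 (chr19:5903741-5904040, minus strand) held 1 NRF1 match and NDUFA13 (chr19:19515975-19516274, plus strand) 1 ETS match. NDUFC1 (chr4:139302502-139302801, minus strand) and ATP5F1E (chr20:59032286-59032585, minus strand) held 0 matches to the 3 motifs. The start of a divergent gene lay 161 bases from NDUFA6 (NDUFA6-DT), 263 from NDUFB1 (CPSF2) and 677 from NDUFA13 (TSSK6), and none was annotated within 1000 bases of the other 5. A promoter was on hand for 69 of the 85 genes. The NRF1 letters occurred in 23.2% of these, against 11.8% of the promoters of all genes tested and 6.28% of all promoters. The corresponding shares were 29.0%, 18.8% and 10.7% for the ETS letters and 21.7%, 7.87% and 6.06% for the YY1 letters. At least 1 of the 3 motifs occurred in 58.0% of the 69 promoters, against 33.3% and 20.5%. A divergent start within 1000 bases was annotated for 37.7%, 23.5% and 16.6%. These matches are letters in a window and were not tested for binding.

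UQCR11 changed most among the 85 genes in the mutants against wild-type SPOP. Its log2 level was 8.28, 8.36 and 8.17 on the control vector arrays and 7.83, 8.07 and 8.29 on the wild-type SPOP arrays. It was 8.61 and 8.62 with SPOP F102C, 8.70 and 8.68 with SPOP F133V, and 8.32 and 8.64 with SPOP F133L. All 6 mutant arrays lay above the 3 wild-type SPOP arrays, and the lowest of them lay within the range of the control vector. It rose 1.448-fold, a log2 difference of 0.53 ± 0.11 (SE; limma, adjusted p = 0.01009). The call was lost without the first wild-type SPOP array (adjusted p = 0.0595) and with array medians equalised, where the difference was 0.121 (adjusted p = 0.343), and the deposited processed values gave 0.333 (adjusted p = 0.00183). Mutants against control vector gave 0.33 ± 0.11 (adjusted p = 0.07442) and wild-type SPOP against control vector -0.21 ± 0.13 (adjusted p = 0.3831). These comparisons share arrays, so their values are not independent of each other.

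NDUFB4 belongs to the far end of the membrane arm of complex I. Its probe read 6.26, 6.05 and 5.95 with control vector, 5.84, 5.90 and 5.83 with wild-type SPOP, 6.17 and 6.12 with SPOP F102C, 6.26 and 6.48 with SPOP F133V, and 6.52 and 6.25 with SPOP F133L. The wild-type SPOP arrays were the 3 lowest of the 12. NDUFB4 rose 1.361-fold in the mutants against wild-type SPOP (0.445 ± 0.096, SE; limma, adjusted p = 0.0134), a call that was lost without the first (0.0609) or the third (0.0566) wild-type SPOP array. Its difference was 0.062 (adjusted p = 0.526) with array medians equalised, and in the deposited processed values it was 0.115 (adjusted p = 0.0394). Against control vector the mutants differed by 0.21 ± 0.10 (adjusted p = 0.1824). A second NDUFB4 probe, detected on 5 arrays at a mean level of 4.949, gave -0.108 ± 0.131, and with the mean of both probes the difference was 0.168 (adjusted p = 0.253).

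NDUFA6 is a subunit of the LYR family at the foot of the matrix arm of complex I. It read 9.54, 9.44 and 9.43 with control vector and 9.18, 9.23 and 9.20 with wild-type SPOP. With the mutants it read 9.42 and 9.39 (SPOP F102C), 9.42 and 9.5 (SPOP F133V) and 9.66 and 9.52 (SPOP F133L). The wild-type SPOP arrays lay below all 9 others. NDUFA6 rose by 0.28 ± 0.07 (SE; 1.218-fold; limma, adjusted p = 0.0276) in the mutants against wild-type SPOP. The sign turned (-0.071) when array medians of uncorrected intensities were equalised in place of background correction and quantile normalization. The call was lost without any 1 of the 3 wild-type SPOP arrays, either SPOP F102C array or the second SPOP F133V array, with adjusted p of at most 0.106. The mutants and the control vector differed by 0.015 ± 0.072, with a 95% interval from -0.144 to 0.173.

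NDUFB1, another small subunit of the membrane arm, read 5.91, 6.55 and 5.95 with control vector, 5.78, 5.75 and 5.75 with wild-type SPOP, 6.13 and 6.09 with SPOP F102C, 6.27 and 6.06 with SPOP F133V, and 6.44 and 6.23 with SPOP F133L. The second control vector array was the highest of the 12 and the wild-type SPOP arrays the 3 lowest. NDUFB1 rose 1.363-fold in the mutants against wild-type SPOP (0.45 ± 0.13, SE; limma, adjusted p = 0.048). The call held in 3 of the 12 fits without 1 array, those without the first or second control vector array or the second SPOP F133V array, and the adjusted p reached 0.133 in the rest. The difference was 0.063 (adjusted p = 0.538) with array medians equalised and 0.109 (adjusted p = 0.0978) in the deposited processed values. It differed by -0.38 ± 0.15 (adjusted p = 0.1747) in wild-type SPOP against control vector and by 0.068 ± 0.131 (adjusted p = 0.7927) in the mutants against control vector.

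**Figure D2:**
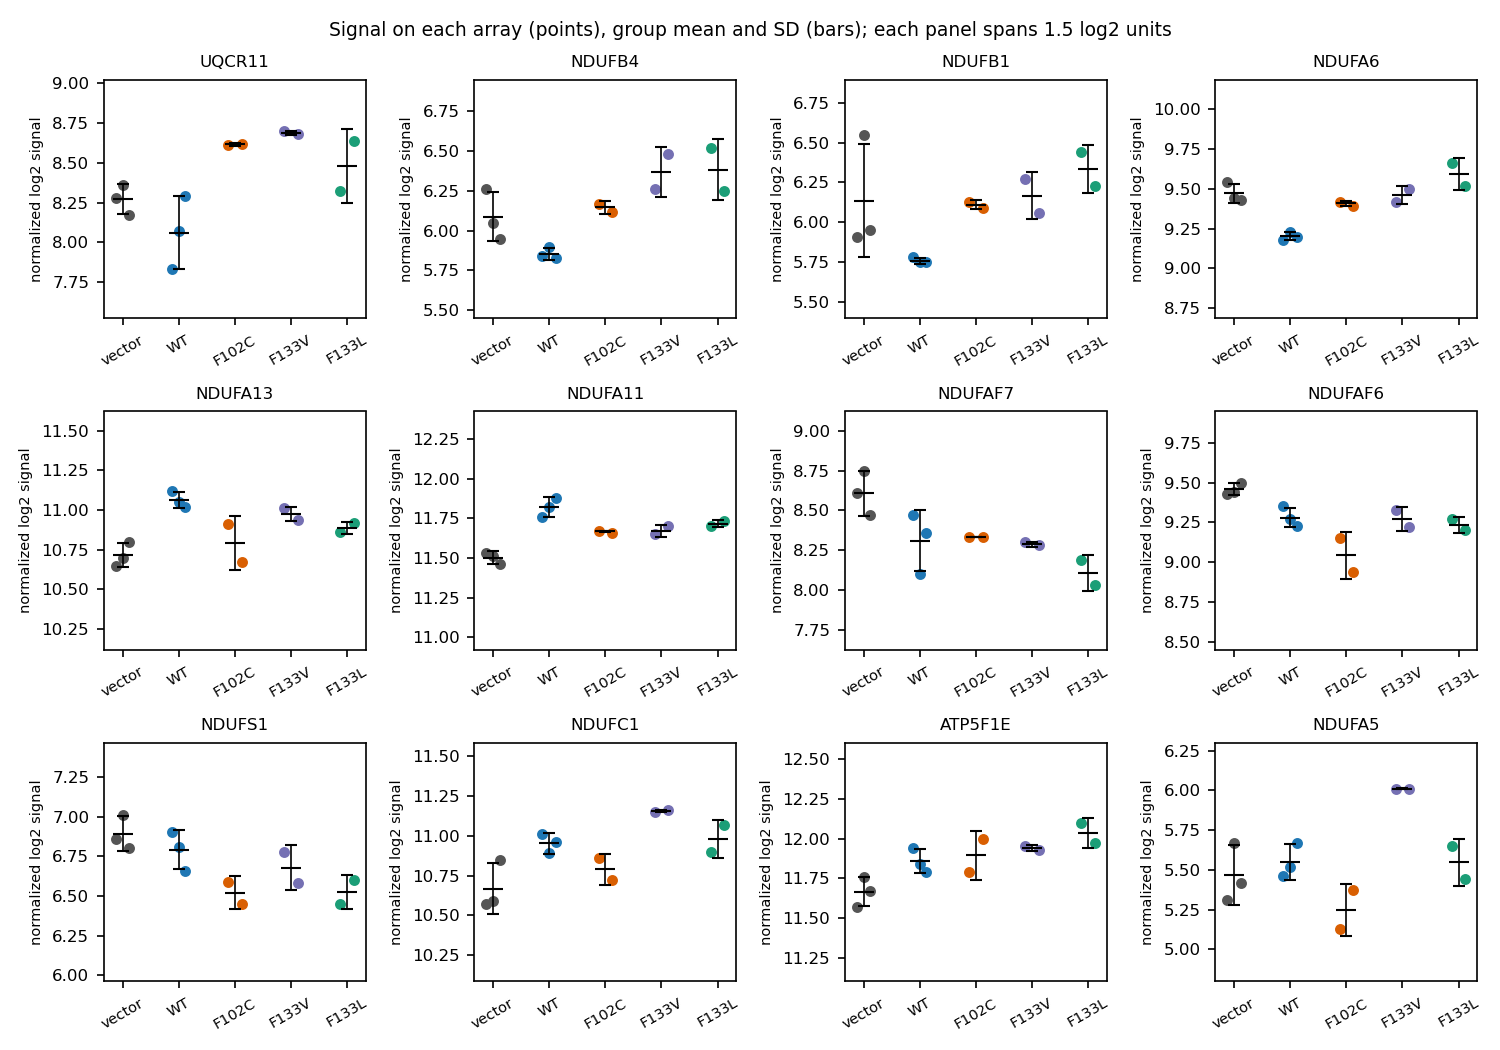
Normalized log2 signal on each array (points) with the group mean and SD (bars) for the 11 genes past the threshold in a main comparison and NDUFA5, which passed the F test across the 5 groups, by construct (control vector, wild-type SPOP and the mutants). The 3 wild-type SPOP arrays are the lowest of the 12 for NDUFB4, NDUFB1 and NDUFA6, while for UQCR11 the third of them, at 8.29, lies within the control vector arrays.

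In wild-type SPOP against control vector, NDUFA13 and NDUFA11 rose. NDUFA13, also known as GRIM-19, read 10.65, 10.70 and 10.80 with control vector and 11.12, 11.05 and 11.02 with wild-type SPOP. The mutant arrays ran from 10.67 to 11.01. No control vector array overlapped the wild-type SPOP arrays, and the difference was 0.34 ± 0.09 (SE; 1.269-fold; limma, adjusted p = 0.04868). NDUFA11, a membrane-arm subunit at the contact with complex III in supercomplexes, read 11.53, 11.51 and 11.46 with control vector and 11.76, 11.82 and 11.88 with wild-type SPOP. Its mutant arrays, at 11.65 to 11.73, lay between both groups without overlap. NDUFA11 rose by 0.32 ± 0.08 (SE; 1.248-fold; limma, adjusted p = 0.03836), and the mutants against wild-type SPOP gave -0.14 ± 0.07 (adjusted p = 0.2363).

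Both calls were close to the threshold. NDUFA13 kept its call in 2 of the 12 fits without 1 array (those without either SPOP F102C array), and NDUFA11 in 2 (those without either SPOP F133L array), with adjusted p up to 0.144 and 0.133 in the others. With array medians equalised the differences were 0.17 (adjusted p = 0.353) and 0.13 (adjusted p = 0.539).

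In the mutants against control vector, NDUFAF7 fell most among the 85 genes. NDUFAF7 is a methyltransferase that modifies a core subunit during complex I assembly. It read 8.61, 8.75 and 8.47 with control vector, 8.47, 8.10 and 8.36 with wild-type SPOP, and 8.33 and 8.33 (SPOP F102C), 8.30 and 8.28 (SPOP F133V) and 8.19 and 8.03 (SPOP F133L) with the mutants. All mutant arrays lay below the control vector arrays. The difference was -0.37 ± 0.10 (SE; 0.776-fold; limma, adjusted p = 0.03293), and wild-type SPOP against control vector gave -0.30 ± 0.11 (adjusted p = 0.1541). Of its 2 other probes, each fitted separately, 1 also fell in the mutants against control vector (-0.409 ± 0.111, adjusted p over all probes = 0.04439) and the other gave -0.13 ± 0.122 (adjusted p = 0.5929).

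NDUFAF6, a further complex I assembly factor, read 9.43, 9.44 and 9.5 with control vector and 9.15, 8.94, 9.33, 9.22, 9.27 and 9.20 on the mutant arrays, with no overlap. It fell (-0.28 ± 0.08, SE; limma, adjusted p = 0.03769), and its wild-type SPOP arrays, at 9.35, 9.27 and 9.23, also lay below every control vector array, with a difference of -0.18 ± 0.09 (adjusted p = 0.2807). NDUFS1 is the largest core subunit of complex I and carries iron-sulfur clusters of its NADH-oxidising tip. It read 6.86, 7.01 and 6.80 with control vector, 6.90, 6.81 and 6.66 with wild-type SPOP, and 6.45 to 6.78 on the mutant arrays. NDUFS1 fell in the mutants against control vector (-0.32 ± 0.09, SE; 0.802-fold; limma, adjusted p = 0.04329) without overlap of the arrays. With the medians of detected probes equalised between arrays, its difference was -0.044 (adjusted p = 0.629).

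NDUFC1 and ATP5F1E rose in the same comparison. NDUFC1, a small membrane-arm subunit, read 10.57, 10.59 and 10.85 with control vector and 10.72 to 11.16 on the mutant arrays, which overlapped, and the difference was 0.31 ± 0.09 (SE; 1.236-fold; limma, adjusted p = 0.04374). ATP5F1E encodes the epsilon subunit of the central stalk of ATP synthase. Its levels were 11.57, 11.76 and 11.67 with control vector, 11.94, 11.84 and 11.79 with wild-type SPOP, and 11.79 to 12.10 on the mutant arrays. All other arrays lay above the control vector arrays, and ATP5F1E rose by 0.29 ± 0.08 (SE; 1.224-fold; limma, adjusted p = 0.04117) in the mutants. With array medians equalised both signs turned, to -0.177 for NDUFC1 and -0.161 for ATP5F1E.

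Every one of these 5 calls was lost in some fits without 1 array. NDUFC1 kept it only without the third control vector array or the first SPOP F133L array, and ATP5F1E only without the first SPOP F102C array or the second SPOP F133L array. NDUFAF7 kept it in 5 of the 12 fits, those without the third control vector array, any 1 wild-type SPOP array or the first SPOP F133L array. NDUFAF6 kept it in 3 (without the first wild-type SPOP, SPOP F102C or SPOP F133L array) and NDUFS1 in 3 (without the third wild-type SPOP, first SPOP F133V or second SPOP F133L array). The highest adjusted p was 0.173, for NDUFS1. NDUFAF7 and NDUFAF6 gave -0.67 and -0.692 (adjusted p = 8.3e-05 and 1.6e-05) with array medians equalised.

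Taken mutant by mutant against wild-type SPOP, SPOP F102C changed 0 of the 85 genes (3.15% of all genes tested passed), SPOP F133V raised 2 (8.15% of all passed) and SPOP F133L raised 2 (6.55%). At an unadjusted p under 0.05 these counts were 12, 9 and 14 (14.1%, 10.6% and 16.5% of the 85, against 18.3%, 25% and 22.7% of all genes). With array medians equalised 0, 69 and 11 fell and 0 rose, where 2.53%, 53.7% and 14.2% of all genes passed. With the medians of detected probes equalised 1, 10 and 8 rose and 0, 9 and 2 fell (5.57%, 49.9% and 17.2% of all genes passed), and in the authors' deposited processed values 1, 3 and 3 rose and 2, 4 and 6 fell (7.32%, 11.6% and 10.7%). UQCR11 gave 0.56 ± 0.14 (SE; adjusted p = 0.05555) with SPOP F102C, 0.63 ± 0.14 (adjusted p = 0.02039) with SPOP F133V and 0.42 ± 0.14 (adjusted p = 0.101) with SPOP F133L. NDUFB4 gave 0.29 ± 0.12 (adjusted p = 0.2411), 0.51 ± 0.12 (adjusted p = 0.02779) and 0.53 ± 0.12 (adjusted p = 0.02869) in the same order, and NDUFA6 0.21 ± 0.09 (adjusted p = 0.2704), 0.26 ± 0.09 (adjusted p = 0.1128) and 0.39 ± 0.09 (adjusted p = 0.03112). These 3 genes were among those picked for their difference between the pooled mutants and the same wild-type SPOP arrays, so their signs here are not independent of that choice. All 4 calls were lost with array medians equalised, with values of -0.005 (adjusted p = 0.976) for UQCR11 with SPOP F133V, 0.016 (0.899) and 0.115 (0.423) for NDUFB4 with SPOP F133V and SPOP F133L, and 0.084 (0.689) for NDUFA6 with SPOP F133L. Each of these 4 calls was lost without 1 of the wild-type SPOP arrays or an array of the mutant itself. UQCR11 with SPOP F133V was lost without the first (0.0662) or second (0.0516) wild-type SPOP array or either SPOP F133V array (0.114 and 0.0634). NDUFB4 was lost without any 1 of the 3 wild-type SPOP arrays, with adjusted p of at most 0.0782 for SPOP F133V and 0.0797 for SPOP F133L. It was also lost with SPOP F133V without either array of that mutant (0.0632 and 0.139), and with SPOP F133L without the first array of that mutant (0.17). NDUFA6 with SPOP F133L was lost without any 1 wild-type SPOP or SPOP F133L array (at most 0.159).

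Few genes passed a test among the 3 mutants. Limma's F test among the mutants passed 0 of the 85 and 3 of the 12227 genes (0.0245%), and 3 of the 85 (3.53%) had an unadjusted p under 0.05, against 11.8% of all genes. Of the 85, 1 passed with array medians equalised (6.56% of all genes did), and with the medians of detected probes equalised 1 (1.46%). The lowest adjusted p, 0.1308, belonged to NDUFA5, a matrix-arm subunit of complex I. NDUFA5 read 5.13 and 5.37 with SPOP F102C, 6.01 and 6.01 with SPOP F133V, and 5.65 and 5.44 with SPOP F133L, beside 5.31 to 5.67 on the 6 other arrays. Both SPOP F133V arrays were the highest of the 12. SPOP F133V and SPOP F133L averaged against SPOP F102C gave 0 calls among the 85 (0% of all genes tested), and SPOP F133L against SPOP F133V gave 0 (0.00818%). For UQCR11 this average differed from SPOP F102C by -0.033 ± 0.134 (SE), and for NDUFA6 by 0.118 ± 0.089. The 95% interval lay within 0.5 log2 (1.41-fold) of zero for 82 of the 85 genes in the former comparison and for 77 in the latter.

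Across the 5 groups, limma's F test passed 4 of the 85 genes (4.71%, against 12.8% of all genes), namely NDUFA5 (adjusted p = 0.03299), UQCR11 (0.03815), NDUFAF8 (0.04518) and NDUFB4 (0.04623). NDUFAF8, which acts with NDUFAF5 in complex I assembly, read 7.89, 8.0 and 8.10 with control vector, 7.94, 8.12 and 8.03 with wild-type SPOP, 8.02 and 7.90 with SPOP F102C, 8.22 and 8.47 with SPOP F133V, and 8.41 and 8.43 with SPOP F133L. The 4 arrays of SPOP F133V and SPOP F133L lay above the 8 others. Its difference from wild-type SPOP was -0.066 ± 0.113 (SE; adjusted p = 0.8129) with SPOP F102C, 0.32 ± 0.11 (adjusted p = 0.1079) with SPOP F133V and 0.39 ± 0.11 (adjusted p = 0.06167) with SPOP F133L. SPOP F133V and SPOP F133L averaged against SPOP F102C gave 0.42 ± 0.11 (adjusted p = 0.1827).

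By complex, the values were small. Among the 34 complex I subunits the median difference was 0.048 in wild-type SPOP against control vector and 0 in the mutants against wild-type SPOP. Its 6 core subunits, which carry the flavin and iron-sulfur clusters of the matrix arm, lay between -0.10 (NDUFS1) and 0.048 (NDUFV1) in the first comparison and between -0.22 (NDUFS1) and 0.092 (NDUFS8) in the second. NDUFV1, which binds the flavin, differed by 0.048 ± 0.094 and -0.013 ± 0.082, with 95% intervals from -0.158 to 0.255 and from -0.192 to 0.166. The 4 genes that rose in the mutants against wild-type SPOP are accessory subunits. Of the 13 accessory subunits of the NDUFB and NDUFC series 10 were higher by value and 3 lower, with 2 past the threshold, and of the 12 of the NDUFA series 4 were higher and 8 lower, with 1 past it. Over all genes tested 47.2% were higher by value and 11.8% passed.

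The 8 complex I assembly factors had a median of -0.121 in wild-type SPOP against control vector, where 7 of 8 were lower by value and 0 passed the threshold. The lowest was NDUFAF7. Their median was 0.06 in the mutants against wild-type SPOP (6 of 8 higher, 0 past the threshold) and -0.073 in the mutants against control vector (2 fell). With array medians equalised these medians were -0.252, -0.25 and -0.519, so the sign of the second turned. The medians over all genes were then -0.054, -0.156 and -0.227. In the main fit 50.2% of all genes were higher by value in wild-type SPOP against control vector, and 47.2% in the mutants against wild-type SPOP.

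Complex II oxidises succinate and is also an enzyme of the citric acid cycle. None of its 3 tested subunits passed the threshold. SDHD, a membrane anchor, read 11.10, 11.19 and 11.20 with control vector, 11.17, 11.40 and 11.18 with wild-type SPOP, and 10.88 to 11.09 on the mutant arrays, all below the other 6. The mutants against wild-type SPOP gave -0.25 ± 0.08 (SE; limma, adjusted p = 0.07352). SDHA, the flavoprotein, gave 0.21 ± 0.09 (adjusted p = 0.2216) in wild-type SPOP against control vector and -0.17 ± 0.08 (adjusted p = 0.2032) in the mutants against wild-type SPOP.

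In complex III the members went in both directions. UQCRC1 and UQCRC2, the large core proteins, gave 0.32 ± 0.09 (SE; adjusted p = 0.06212) and 0.17 ± 0.10 (adjusted p = 0.3641) in wild-type SPOP against control vector, and -0.15 ± 0.08 (adjusted p = 0.2674) and -0.29 ± 0.09 (adjusted p = 0.05236) in the mutants against wild-type SPOP. UQCRC2 was the lowest of all 85 values there. CYC1, the cytochrome c1 subunit that passes electrons to cytochrome c, read 12.86, 13.01 and 12.72 with control vector, 12.49, 12.62 and 12.68 with wild-type SPOP, and 12.47 to 12.77 on the mutant arrays. Its differences from control vector were -0.27 ± 0.10 (adjusted p = 0.1647) with wild-type SPOP and -0.25 ± 0.09 (adjusted p = 0.0955) with the mutants. UQCRH and UQCRHL have nearly identical sequences, as have the pseudogenes and their parent genes, so their probes may read each other's transcripts.

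Complex IV, the oxygen-reducing cytochrome c oxidase, had 11 tested genes and 0 past the threshold. COX4I1 and COX5A, which surround the catalytic core, read 13.32 to 13.56 and 13.23 to 13.45 over the 12 arrays. Their differences lay between -0.013 and 0.105 in the 3 main comparisons, with all 95% intervals within -0.174 to 0.273. COX6A1 gave 0.27 ± 0.09 (SE; limma, adjusted p = 0.1033) in wild-type SPOP against control vector, with control vector arrays at 12.22 or below and wild-type SPOP arrays at 12.31, 12.36 and 12.42, and -0.19 ± 0.08 (adjusted p = 0.1323) in the mutants against wild-type SPOP. In wild-type SPOP against control vector 10 of the 11 genes were higher by value (50.2% of all genes were), with a median of 0.088, which became -0.082 with array medians equalised. The tissue-restricted isoforms COX4I2, COX6A2, COX7A1, COX7B2 and COX8C were detected on 0 arrays, and COX6B2, known from testis, on 1 array with 1 of its 2 probes. NDUFS6 (0 arrays) and the antisense RNA NDUFB2-AS1 (1 array) were the other genes left out by the filter.

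Complex V had 18 tested genes, and ATP5F1E alone passed the threshold in a main comparison. ATP5F1A and ATP5F1B encode the alpha and beta subunits of the catalytic head. ATP5F1A read 13.29 to 13.54 and ATP5F1B 14.27 to 14.67 over the 12 arrays, and the mutants differed from wild-type SPOP by -0.021 ± 0.077 (SE) and -0.118 ± 0.087. With the medians of detected probes equalised, the sign of ATP5F1B turned (0.228). ATP5MC1, ATP5MC2 and ATP5MC3 encode the same mature c subunit of the membrane ring, and gave -0.19 ± 0.13, 0.10 ± 0.14 and 0.14 ± 0.15 in wild-type SPOP against control vector, none past the threshold. ATP5PO, the peripheral-stalk subunit that sets oligomycin sensitivity, gave -0.24 ± 0.08 (adjusted p = 0.06911) in the mutants against wild-type SPOP, where its 6 arrays, at 12.73 to 12.92, lay below the 3 of wild-type SPOP, at 13.01 to 13.15. ATP5MF gave 0.27 ± 0.10 (adjusted p = 0.1385) in wild-type SPOP against control vector. ATP5IF1, the inhibitor of ATP hydrolysis by the synthase, differed by 0.121 ± 0.115, 0.01 ± 0.099 and 0.13 ± 0.099 in the 3 main comparisons.

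**Figure D3:**
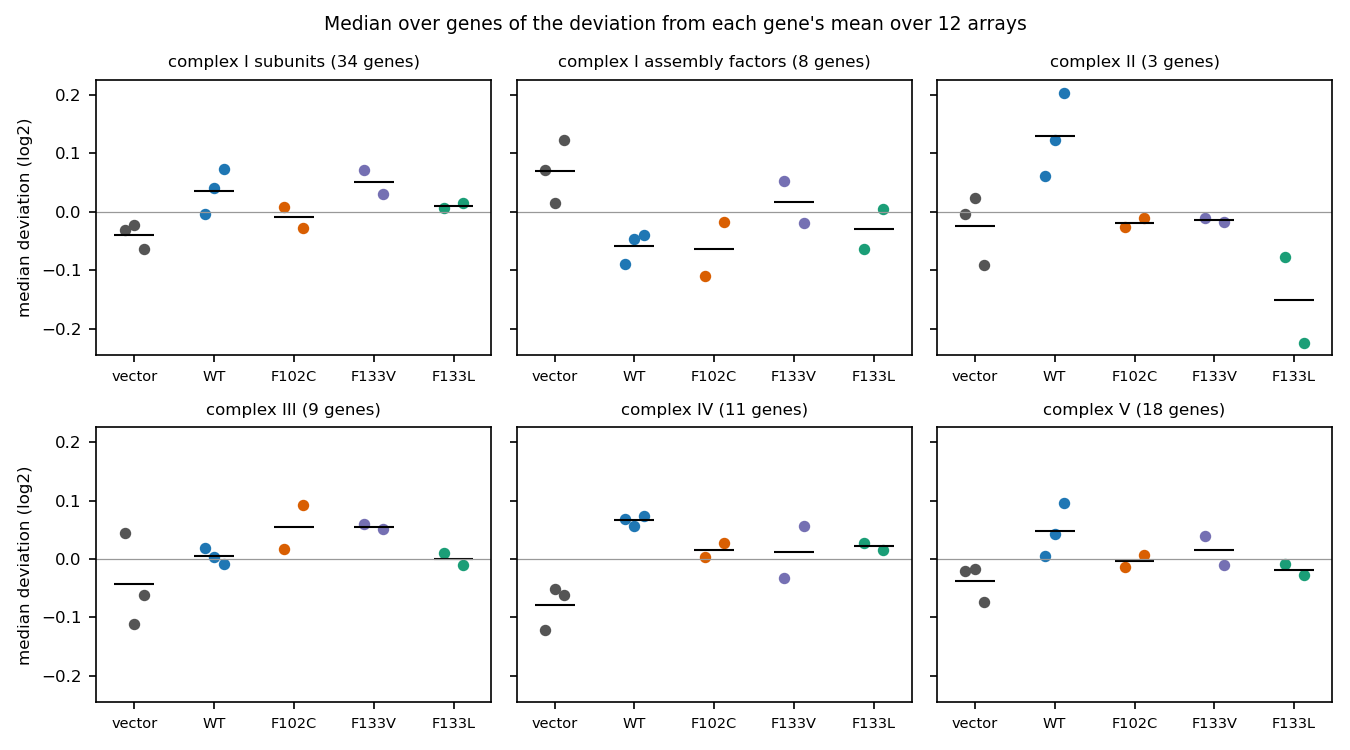
Median over the genes of each complex of the deviation from each gene's own mean over the 12 arrays (log2), 1 point per array by construct, with black bars for group means, after quantile normalization. Complex IV lies at 0.057 to 0.073 on the wild-type SPOP arrays and at -0.121 to -0.052 on the control vector arrays, and over all complexes the deviations run from -0.224 to 0.204.

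As a set, the genes stayed close to the median of all genes. In wild-type SPOP against control vector 61 of the 85 (71.8%, against 50.2% of all genes) were higher by value and the median was 0.061 (0.001 over all genes), but the median was -0.105 with array medians equalised (-0.054 over all genes) and -0.02 with the medians of detected probes equalised (0.031 over all). In the mutants against wild-type SPOP 39 were higher, with a median of -0.013 (-0.015 over all genes), and in the mutants against control vector 56 were higher, with a median of 0.041 (-0.011), which became -0.354 and -0.006 under those scalings (all genes -0.227 and 0.12). Relative to all genes, the median was thus 0.052 higher in the mutants against control vector, or 0.127 and 0.126 lower under those scalings. The direction of the set as a whole therefore depends on how the arrays are corrected and scaled. The medians of whole arrays belong to undetected probes. On every array the median intensity (109 to 130.4) lay below the lowest intensity of a detected probe (114.8 to 138.1). Among the 55 genes with a mean level over 11 the medians were 0.069, -0.023 and 0.049, beside -0.002, -0.002 and -0.001 over all 946 genes at that level.

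**Figure D4:**
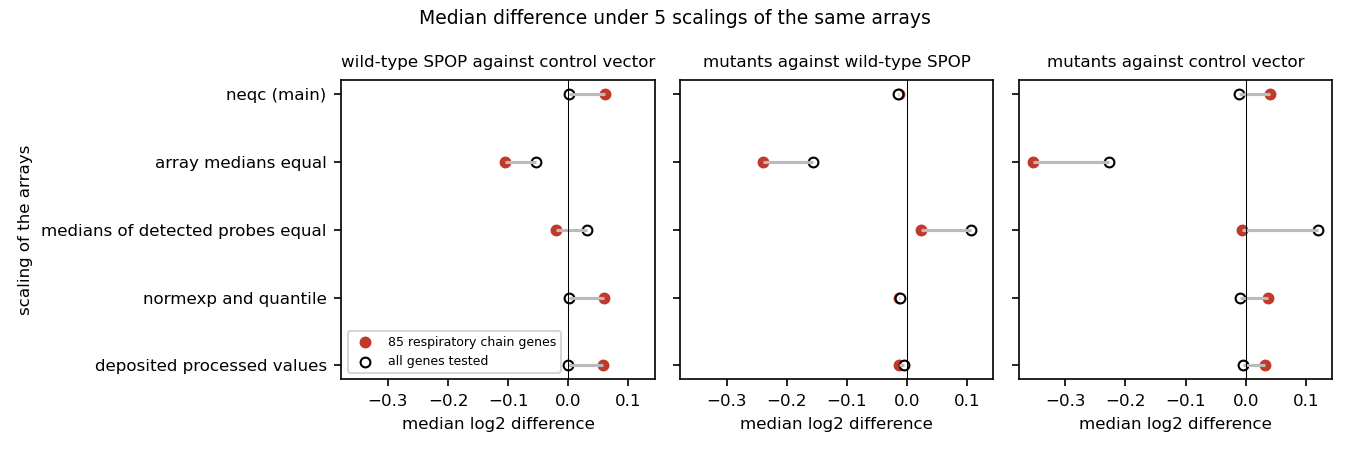
Median log2 difference of the 85 genes (filled) and of all genes tested (open) in the 3 main comparisons under 5 ways of correcting and scaling the arrays. Quantile normalization gives the 85 genes medians of 0.061, -0.013 and 0.041, while equalised array medians move the 85 genes to -0.105, -0.239 and -0.354.

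After quantile normalization, the 95% intervals were narrow for most of the 85 genes. In the mutants against wild-type SPOP the 95% interval lay within 0.5 log2 (1.41-fold) of zero for 81 of the 85 genes. This held for 78 in wild-type SPOP against control vector and for 76, 72 and 74 with SPOP F102C, SPOP F133V and SPOP F133L against wild-type SPOP. These bounds belong to that correction and scaling. With array medians equalised the interval lay within 0.5 log2 of zero for 52 of the 85 genes in the mutants against wild-type SPOP, for 77 in wild-type SPOP against control vector and for 34 in the mutants against control vector, and for 61, 14 and 52 with the 3 mutants in turn. The lowest values were then -0.587 (UQCRC2) in the mutants against wild-type SPOP and -0.692 (NDUFAF6) in the mutants against control vector. Among the 25 genes with several probes, the probes had both signs for 7, 10 and 9 genes in the 3 main comparisons. Fitted probe by probe over all 23133 probes, 0 of the 115 probes passed in wild-type SPOP against control vector (3.22% of all probes did). In the mutants against wild-type SPOP 3 rose (7.01% of all probes passed), those of UQCR11 and NDUFB4 and a second probe of ATP5ME (0.305 ± 0.083, limma adjusted p = 0.04681). The ATP5ME probe that stood for the gene, at a mean level of 13.559, gave 0.014 ± 0.075 (adjusted p = 0.9429). Another ATP5ME probe, detected on 6 arrays, gave -0.124 ± 0.102. In the mutants against control vector 1 probe fell (NDUFAF7), where 7.54% of all probes passed.

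Genes around the respiratory chain were read from 16 lists of other mitochondrial functions, with 201 genes tested. Of these 4 rose and 3 fell in wild-type SPOP against control vector (3.48%, against 6.15% of all genes), 8 rose and 7 fell in the mutants against wild-type SPOP (7.46%, against 11.8%), and 4 rose and 10 fell in the mutants against control vector (6.97%, against 12.2%). Each share lay below that of all genes, and the genes named from these lists are single calls. All counts and calls from these lists belong to the main fit. They were not examined under the other corrections and scalings or without 1 array. CYCS, cytochrome c itself, fell in the mutants against control vector (-0.40 ± 0.08, SE; limma, adjusted p = 0.006618). TMEM70, which helps to assemble the ring of ATP synthase, fell in wild-type SPOP against control vector (-0.60 ± 0.09, adjusted p = 0.002616) and rose in the mutants against wild-type SPOP (0.66 ± 0.08, adjusted p = 4.97e-04). ATPAF1, which assembles the catalytic head, rose in wild-type SPOP against control vector (0.41 ± 0.11, adjusted p = 0.04769).

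Among enzymes and carriers that feed the chain, OGDH, a subunit of the oxoglutarate dehydrogenase complex, rose in wild-type SPOP against control vector (0.56 ± 0.12, SE; limma, adjusted p = 0.01644) and fell in the mutants against wild-type SPOP (-0.51 ± 0.10, adjusted p = 0.009417), where DLD, another subunit of that complex, fell as well (-0.30 ± 0.09, adjusted p = 0.04497). These 2 were all that passed of the 11 citric acid cycle genes tested. MPC2, a subunit of the mitochondrial pyruvate carrier, rose in the mutants against wild-type SPOP (0.38 ± 0.07, adjusted p = 0.006819) and against control vector (0.45 ± 0.07, adjusted p = 0.002297), and PDP1, the phosphatase that activates pyruvate dehydrogenase, fell in both (-0.40 ± 0.10 and -0.44 ± 0.10, adjusted p = 0.02953 and 0.01919). ETFDH, which passes electrons of fatty acid oxidation to ubiquinone, fell in the mutants against wild-type SPOP (-0.41 ± 0.08, adjusted p = 0.007452). UCP2, an inner membrane carrier, rose with wild-type SPOP (0.71 ± 0.11, adjusted p = 0.003169) and with the mutants (0.58 ± 0.10, adjusted p = 0.002719) against control vector.

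Of the 11 tested regulators of mitochondrial biogenesis, TFAM, which packages mitochondrial DNA and takes part in its transcription, fell in the mutants against control vector (-0.33 ± 0.09, SE, limma adjusted p = 0.03797). In the other 2 main comparisons 0 of these regulators passed. Of 79 mitochondrial ribosomal protein genes, 0 passed in wild-type SPOP against control vector, 1 rose (MRPS26) and 1 fell (MRPS33) in the mutants against wild-type SPOP, and 4 fell in the mutants against control vector. Of 15 import genes TOMM40, the pore of the outer membrane, fell in wild-type SPOP against control vector (-0.37 ± 0.10, adjusted p = 0.0394), and TOMM40, TOMM20 and TIMM10 rose in the mutants against wild-type SPOP (0.32 to 0.33). None of 19 complex IV assembly genes passed in the 3 main comparisons. Transcripts encoded in mitochondrial DNA were not analysed here.

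Other measures moved with the groups. The summed linear signal of the 9 luminal markers was 13975 to 14809 with control vector, 15775 to 16435 with wild-type SPOP and 15045 to 15897 with the mutants. CD68, a marker of macrophages that is also found in other cells, had a linear signal of 163 to 171 with control vector, 142 to 181 with wild-type SPOP and 176 to 262 with the mutants, while the other immune markers did not pass the filter. The part of these differences in the values of the respiratory chain genes was not tested. The number of detected probes was 19272 to 19677 with control vector, 18906 to 19175 with wild-type SPOP and 17485 to 19543 with the mutants. It follows the groups in part, so a fit that holds it cannot fully tell it apart from the construct. When each array's number of detected probes entered the fit, 0 of the 85 genes passed in each of the 3 main comparisons, and the share of all genes that passed was 2.81%, 2.52% and 0.875%. The differences themselves were then 0.632 for UQCR11, 0.446 for NDUFB4, 0.495 for NDUFB1 and 0.277 for NDUFA6 in the mutants against wild-type SPOP, and 0.255 for NDUFA13 and 0.339 for NDUFA11 in wild-type SPOP against control vector. Those in the mutants against control vector were 0.155 for NDUFC1, 0.435 for ATP5F1E, -0.322 for NDUFAF7, -0.443 for NDUFS1 and -0.494 for NDUFAF6.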

How the data were processed

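RNA from 12 samples was measured on Illumina bead arrays, grouped by sample title. Per the file headers, the authors deposited non-normalized bead intensities with a detection p-value per probe, and processed values that lie on a log2 scale. The submitters' processing notes name lumi, with no settings. The transformation behind these log2 values is not stated in those notes, and they were used only as an alternative.

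Background correction and quantile normalization used neqc (offset 16) of limma 3.58.1 in R 4.3.3, with negative controls inferred from the detection p-values. Probes with a detection p under 0.05 on at least 2 arrays were kept (23133). Of all probes, 30113 had 1 gene symbol in the platform annotation, 8 several and 17202 none, and 0 symbols needed updating. The probe of highest mean stood for a gene. A limma fit (lmFit and eBayes) with 5 group means, 7 residual and 4.67 prior degrees of freedom, was made over 12227 genes, with mutants averaged at equal weight and p-values adjusted by Benjamini-Hochberg. The fit was tested on simulated data.

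Genes named with values were those past the threshold, the lowest p of each complex in the first 2 comparisons, and fixed catalytic and core subunits. Others are named by lowest or highest value and were chosen after their values were seen. The members, lists and tests were chosen with earlier results of these data known. Lists are described by counts and medians, with no test. The alternatives were other scalings, filters, probe rules, covariates, weights, sample sets and a replicate block, all given in the closing section. Both scalings by medians used log2 intensities without background correction. The fit probe by probe was added after seeing the data.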

Additional observations from a re-analysis of the deposited data

How the results depend on the processing

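Counts among the 85 genes moved with the background correction and scaling and with the spread model. They are given in the order of wild-type SPOP against control vector, the mutants against wild-type SPOP, the mutants against control vector, SPOP F102C, SPOP F133V and SPOP F133L against wild-type SPOP, and the 5-group F test, for which the reported values were 2, 4, 5, 0, 2, 2 and 4. They were 1, 43, 65, 0, 69, 11 and 63 with array medians equalised (all of the 43, 65, 69 and 11 falls, and 1 gene in the F test among the mutants), with medians of -0.105, -0.239 and -0.354 in the 3 main comparisons. The 5-group F test then passed 56% of all genes. The counts were 4, 18, 25, 1, 19, 10 and 22 with the medians of detected probes equalised (10 rises and 8 falls, then 13 and 12, in the comparisons of the mutants, and 1 gene in the F test among the mutants), with medians of -0.02, 0.023 and -0.006. Here 60.9% of all genes passed the 5-group F test. The counts were 4, 8, 8, 1, 3, 4 and 7 after normexp and quantile normalization, and 11, 15, 17, 3, 7, 9 and 23 with the deposited processed values. They were 4, 7, 7, 1, 3, 4 and 6 over genes detected on all 12 arrays, and 10, 9, 13, 1, 5, 8 and 15 with an intensity trend. With detected probes as a covariate every count was 0, and that of SPOP F102C was 0 already. In the same order, the shares of all genes that passed were 8.82%, 15.5%, 15.5%, 5.85%, 11.2%, 9.99% and 20.2% after normexp and quantile normalization. These shares were 10.5%, 16.4%, 16.2%, 7.32%, 11.6%, 10.7% and 20.2% with the deposited processed values. Over genes detected on all 12 arrays they were 11.4%, 20.1%, 19.7%, 7.79%, 13.5%, 12.3% and 23%. With an intensity trend they were 10.4%, 16.4%, 16.6%, 7.14%, 12.3%, 11% and 22.6%. With detected probes as a covariate they were 2.81%, 2.52%, 0.875%, 2.4%, 0.0409%, 3.14% and 4.16%. Fits of only the groups compared gave 0, 1, 0 and 1 in wild-type SPOP and the mutants against control vector and in SPOP F133V and SPOP F133L (5.95%, 9.26%, 2.81% and 3.56% of all genes passed). The mean of all probes gave 1 each in SPOP F133V and SPOP F133L (7.7% and 6.38% of all genes), and array weights gave 1 in SPOP F102C (5.5%). Without 1 array at a time the counts ran from 0 to 1, 0 to 4, 0 to 4, 0 to 1, 0 to 4, 0 to 3 and 0 to 3 (0 to 0 in the F test among the mutants), and the 3 medians from 0.037 to 0.077, from -0.026 to 0.003 and from 0.029 to 0.054. The shares of all genes that passed without 1 array are not given here. These counts therefore do not show whether the 85 genes lost calls more often than other genes. The cause of the shifts in counts and medians was not tested.

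Of the genes that rose in the mutants against wild-type SPOP, UQCR11 passed the threshold in 10, NDUFA6 in 9, NDUFB4 in 8 and NDUFB1 in 7 of 12 processing alternatives, and UQCR11, NDUFB4 and NDUFB1 kept their sign in all 12, with lowest values of 0.121, 0.062 and 0.063, none past the threshold. Of the 28 named genes, 10, 9 and 20 turned sign under equalised array medians in the 3 main comparisons, and 0, 4 and 15 of these passed the threshold under either setting. In the mutants against wild-type SPOP those that passed were NDUFA6 (-0.071), NDUFC1 (-0.294), CYC1 (-0.222) and ATP5IF1 (-0.304), and for SPOP F133V UQCR11 (-0.005). In the mutants against control vector they were NDUFA13 (-0.304), NDUFA11 (-0.284), NDUFA6 (-0.44), NDUFC1 (-0.177), ATP5F1E (-0.161), SDHA (-0.418), UQCRC1 (-0.296), COX6A1 (-0.354), ATP5MF (-0.348), NDUFV1 (-0.431), COX4I1 (-0.256), COX5A (-0.301), ATP5MC3 (-0.264), ATP5F1A (-0.309) and ATP5IF1 (-0.344). With the medians of detected probes equalised 4, 5 and 6 turned, of which ATP5F1B passed, at 0.228 and 0.272 in the mutants against wild-type SPOP and control vector. The other turns, with the mean of all probes (0, 1 and 0), detected probes as a covariate (0, 6 and 3) or the replicate block (0, 2 and 0), passed in neither setting.

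With the replicate number as a block the counts were 0, 1, 1, 0, 1, 0 and 0. Of all genes 4.44%, 5.5%, 7.52%, 1.46%, 4.19%, 3.34% and 6.42% then passed. Same-numbered arrays of different groups did not deviate together (r from -0.06 to 0.041 over 21 pairs, 0 of them over 0.1). Deviations from a mutant's mean mirror each other between its arrays, so pairs between mutants repeated their r (0.041, -0.02 and -0.036). The 21 pairs are therefore not independent checks. Whether same-numbered arrays shared a culture, day or slide was not tested. A block for slides was not run, since the headers name no slide. Signal near background limits NDUFC2, NDUFA5 and the second NDUFB4 probe. The probes that stood for NDUFB1 and NDUFB4 were low as well, at mean levels of 6.076 and 6.136. The lowest detected log2 level on an array was 4.942 to 5.115.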
